A study of Mus musculus with 6 samples.

Results

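The 2483 circular RNAs (circRNAs) described here came from 96 genes, each of which gave at least 20 different exonic circRNAs in the ovaries of neonatal and adult mice. They were chosen by counting: a gene entered when the deposited catalogue listed 20 or more exonic circRNAs under its name. They made up 9.50% of the 26144 exonic circRNAs in the catalogue, while their 96 host genes made up 1.38% of the 6936 genes with an exonic circRNA. The hosts had between 20 and 41 circRNAs each, with a median of 23.5. Just inside the threshold stood 14 hosts with 20 circRNAs and 10 hosts with 21, and just outside it stood 14 with 19 and 21 with 18. The hosts with 19 were Ankrd17, Dis3l2, Eya3, Fam178a, Gm15800, Kcnt2, Myo5b, Nf2, Nup98, Pcsk5, Ptprg, Susd1, Wdr7 and Zfp827. Those with 18 included AI314180, Carf, Dennd1a, Dlg1, Dym, Hmgxb3, Itsn1, Kdm5b, Kmt2c, Map3k5, Myo10, Myo1e, Pcdh15, Rev1, Smarcc1, Sntg2, Sox5, Tanc1, Wdfy3 and Zfyve9.

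The ovaries came from the inbred mouse strain C57BL/6 and had been taken on postnatal day 5 (n = 3) and at 6 weeks of age (n = 3). The labels name no engineered allele or treatment, and they do not say whether a library came from 1 animal or from pooled ovaries. All RNA had been digested with RNase R, an exonuclease that removes linear RNA and leaves most circles. The deposited comparison names its groups A and B and does not say which letter is which age, so the letters are kept here and nothing is said about age.

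A circRNA forms when the spliceosome joins the end of an exon (a splice donor) back to the start of the same exon or of an exon upstream (a splice acceptor). A gene that gives many circles must therefore use several donors, several acceptors, or many pairings of a few. Long introns beside the circularised exons, often with inverted repeats that can pair, are known to favour back-splicing in mammals. Most circles carry coding exons of their host without being templates for its protein.

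The tissue label was checked against marker genes of 5 ovarian cell types, of which 19 had an exonic circRNA. These were 6 of 9 granulosa cell genes, 3 of 5 theca and luteal cell genes, 3 of 9 oocyte genes, 3 of 4 stromal genes and 4 of 4 endothelial genes. None was listed for the leukocyte, oviduct or fat cell markers. Among the defining genes without a listed circle were Foxl2 and Fshr of granulosa cells and Gdf9 and Bmp15 of oocytes. A gene with few exons can lack circles whatever its expression, so this is a weak check.

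The junctions of a host that reused a single splice site show what sharing means at the level of sequence. Anapc1 encodes a scaffold subunit of the anaphase-promoting complex, the ubiquitin ligase that drives exit from mitosis. It had 20 circRNAs, and 10 of them ended at the same acceptor, the start of exon 3 of 48 at position 128684663 of chromosome 2 (minus strand, GRCm38). The lines give the last 15 bases of the donor exon in lower case, followed by the first 15 bases of the acceptor exon in capitals, from GENCODE M21 transcripts. All run 5′ to 3′.
Anapc1 circRNA25584, exon 6 back to 3, chr2:128679520-128684663: tccaagtctacctagGAAAGCTGGCAGTTA
Anapc1 circRNA18935, exon 7 back to 3, chr2:128678211-128684663: tttgtaaatccggaaGAAAGCTGGCAGTTA
Anapc1 circRNA11181, exon 8 back to 3, chr2:128676102-128684663: agggtaaagccagagGAAAGCTGGCAGTTA
Anapc1 circRNA23155, exon 10 back to 3, chr2:128674551-128684663: acttccgaatataagGAAAGCTGGCAGTTA
Anapc1 circRNA21738, exon 11 back to 3, chr2:128672062-128684663: ccagcttcagttacgGAAAGCTGGCAGTTA
Anapc1 circRNA2901, exon 14 back to 3, chr2:128668925-128684663: ggatcgatggatgagGAAAGCTGGCAGTTA
Anapc1 circRNA11180, exon 15 back to 3, chr2:128666565-128684663: aacagagtcactctaGAAAGCTGGCAGTTA
Anapc1 circRNA25582, exon 17 back to 3, chr2:128663875-128684663: gcatggacccgaagtGAAAGCTGGCAGTTA
Anapc1 circRNA18934, exon 20 back to 3, chr2:128658248-128684663: gcaccattgaccaagGAAAGCTGGCAGTTA
Anapc1 circRNA11179, exon 21 back to 3, chr2:128657126-128684663: aggctagtggtcttgGAAAGCTGGCAGTTA
The right side of all 10 junctions is the same and the left side is different in each.

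Itga9, which encodes the alpha-9 integrin subunit of cell-matrix adhesion, showed the mirror image. Of its 28 circRNAs, 9 left from the same donor, the end of exon 15 of 28 at position 118698474 of chromosome 9 (plus strand, GRCm38). In these lines the left side is constant and the acceptor side changes.
Itga9 circRNA21969, exon 15 back to 2, chr9:118626448-118698474: gtggcccacgtcaagGGTCCTCGTGGGTGC
Itga9 circRNA12581, exon 15 back to 4, chr9:118636503-118698474: gtggcccacgtcaagGCCTGTGCCCATCGT
Itga9 circRNA12583, exon 15 back to 5, chr9:118652497-118698474: gtggcccacgtcaagAGTATAAGAAGAAGT
Itga9 circRNA12585, exon 15 back to 6, chr9:118658466-118698474: gtggcccacgtcaagGAACTGGTGGTCATG
Itga9 circRNA20060, exon 15 back to 7, chr9:118661348-118698474: gtggcccacgtcaagGCTATGCAGTGACGG
Itga9 circRNA25990, exon 15 back to 8, chr9:118663870-118698474: gtggcccacgtcaagGTTTATATATTTAGA
Itga9 circRNA12587, exon 15 back to 9, chr9:118668612-118698474: gtggcccacgtcaagATGGGCTCTTACTTC
Itga9 circRNA3462, exon 15 back to 12, chr9:118680936-118698474: gtggcccacgtcaagAAGCTGTCTGGGAGG
Itga9 circRNA12588, exon 15 back to 14, chr9:118689270-118698474: gtggcccacgtcaagGGCCAGACCGGTCAT
Both sets were chosen for display after their counts had been seen.

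Shared sites were common in the 96 hosts. A splice site was shared with another circle of the same host by 2276 of the 2483 circRNAs (91.7%). The acceptor was shared by 1787 (72.0%), the donor by 1793 (72.2%) and both by 1304 (52.5%), and the remaining 207 shared neither. Every circle shared a site in 25 hosts, and no circle was listed more than once with the same ends. The number of circles that chose the hosts fixes part of this sharing, since more circles on a gene leave fewer free sites. In the 493 hosts with 10 to 19 circRNAs, the median share of circles with a shared site was 90%, against 94.7% here.

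The circles drew on 1306 acceptors and 1321 donors. Of the acceptors, 696 served a single circle, 313 served 2, 227 served 3 or 4, and 70 served 5 or more. The 70 busiest acceptors lay in 52 hosts and served 404 circles. The donors were spread in much the same way, with 690, 336, 239 and 56 in these classes, and the 56 busiest lay in 38 hosts and served 319 circles. The most used acceptor served more circles than the most used donor in 45 hosts, fewer in 24 and as many in 27.

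Used sites were joined in a small part of the possible ways. A donor at or downstream of an acceptor makes a possible circle, and the used sites of the 96 hosts allowed 11231 such pairs, of which 22.1% were listed. Syne2, which had the most circles, used 7.96% of its 515 possible pairs. Rere used 55% of its 60 pairs, and Tbc1d14, a gene of the TBC domain family of membrane traffic, 50%.

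In no host but Anapc1 did a single site reach 50% of the circles. The most used site of a host held a median of 5 circRNAs, or 20% of the host's circles (quartiles 17.4% and 25%). The share was at least 25% in 25 hosts and at least 33% in 3. After Anapc1 came Tasp1, a threonine protease that cleaves the histone methyltransferase MLL, with 10 of 21 circles (47.6%). Fgfr2, a fibroblast growth factor receptor, had 7 of 20 (35%) at the acceptor of its exon 3, and Itga9 had 32.1%. Arid1b, Helz and Tbc1d14 followed with 30% each.

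The 5 smallest shares belonged to genes with between 44 and 116 exons. Syne2 stood lowest at 7.32%, with no site used by more than 3 circles. The cytoskeletal linker gene Macf1 had 9.09%, the microtubule polymerase gene Ckap5 9.38%, the lipid transfer gene Vps13b 12.1% and the vesicle traffic gene Nbas 12.8%. In the 493 hosts with 10 to 19 circRNAs the median share was 30%. A share of a smaller number is necessarily coarser, so the medians are given as descriptions.

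**Figure D1:**
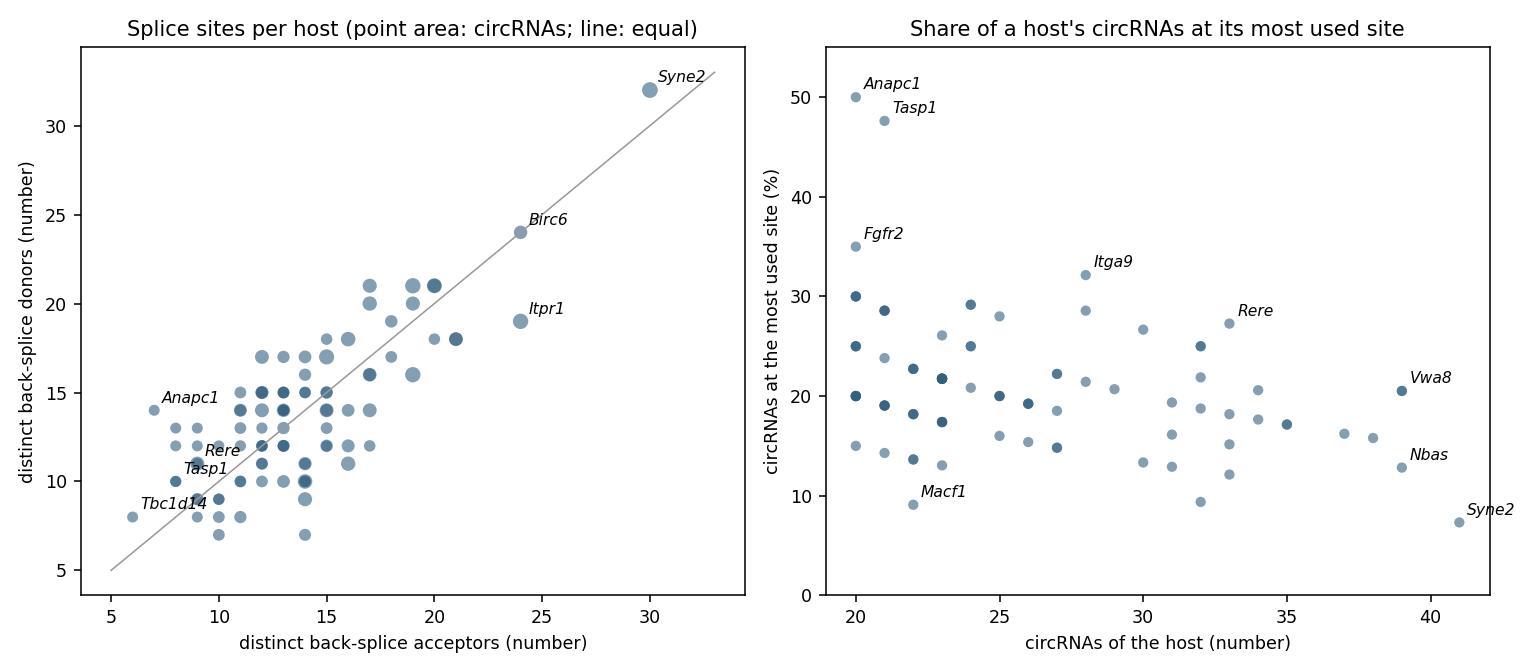
Distinct back-splice acceptors (horizontal axis) against distinct donors (vertical axis) in 94 of the 96 hosts, with point area following the number of circRNAs, and, on the right, the percentage of a host's circRNAs at its most used site against their number. Syne2 lies far out on the left panel with 30 acceptors and 32 donors, and Anapc1 (50%) and Tasp1 (47.6%) stand above the other hosts on the right panel.

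The exon maps of single hosts showed distinct layouts. Tasp1 has 14 exons in the named isoform, and the acceptor of exon 2 (chromosome 2, position 140057499, minus strand) was joined to the ends of exons 3 to 8 and 10 to 13. All 10 of these circles had values in 2 or more libraries. Rere encodes a transcriptional corepressor of the atrophin family with 23 exons, and its acceptor of exon 2 (chromosome 4, position 150406196, plus strand) served 9 of 33 circles. Its acceptors of exons 3 and 4 were paired with many of the same donors, and exon 5 lay inside 20 of the 32 circles placed on the main isoform.

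Syne2 encodes a giant protein that links the nuclear envelope to the cytoskeleton and has 116 exons in the named isoform. Its 41 circles were strung along the gene in short runs: the most covered exon, exon 97, lay in 5 of the 40 circles on the main isoform (12.5%). Vwa8, a gene for a mitochondrial ATPase-like protein, lay between these layouts, with 8 of 39 circles at the acceptor of exon 13 of 45 and 6 at the donor of exon 26. Exon 13 lay inside 16 of its circles. At the other extreme from Syne2, exon 6 of Tbc1d14 lay in 83.3% of the circles on its main isoform. Across the 96 hosts, the most covered exon lay in a median of 40% of the circles, and 82.6% of the exons lay in at least 1 circle.

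**Figure D2:**
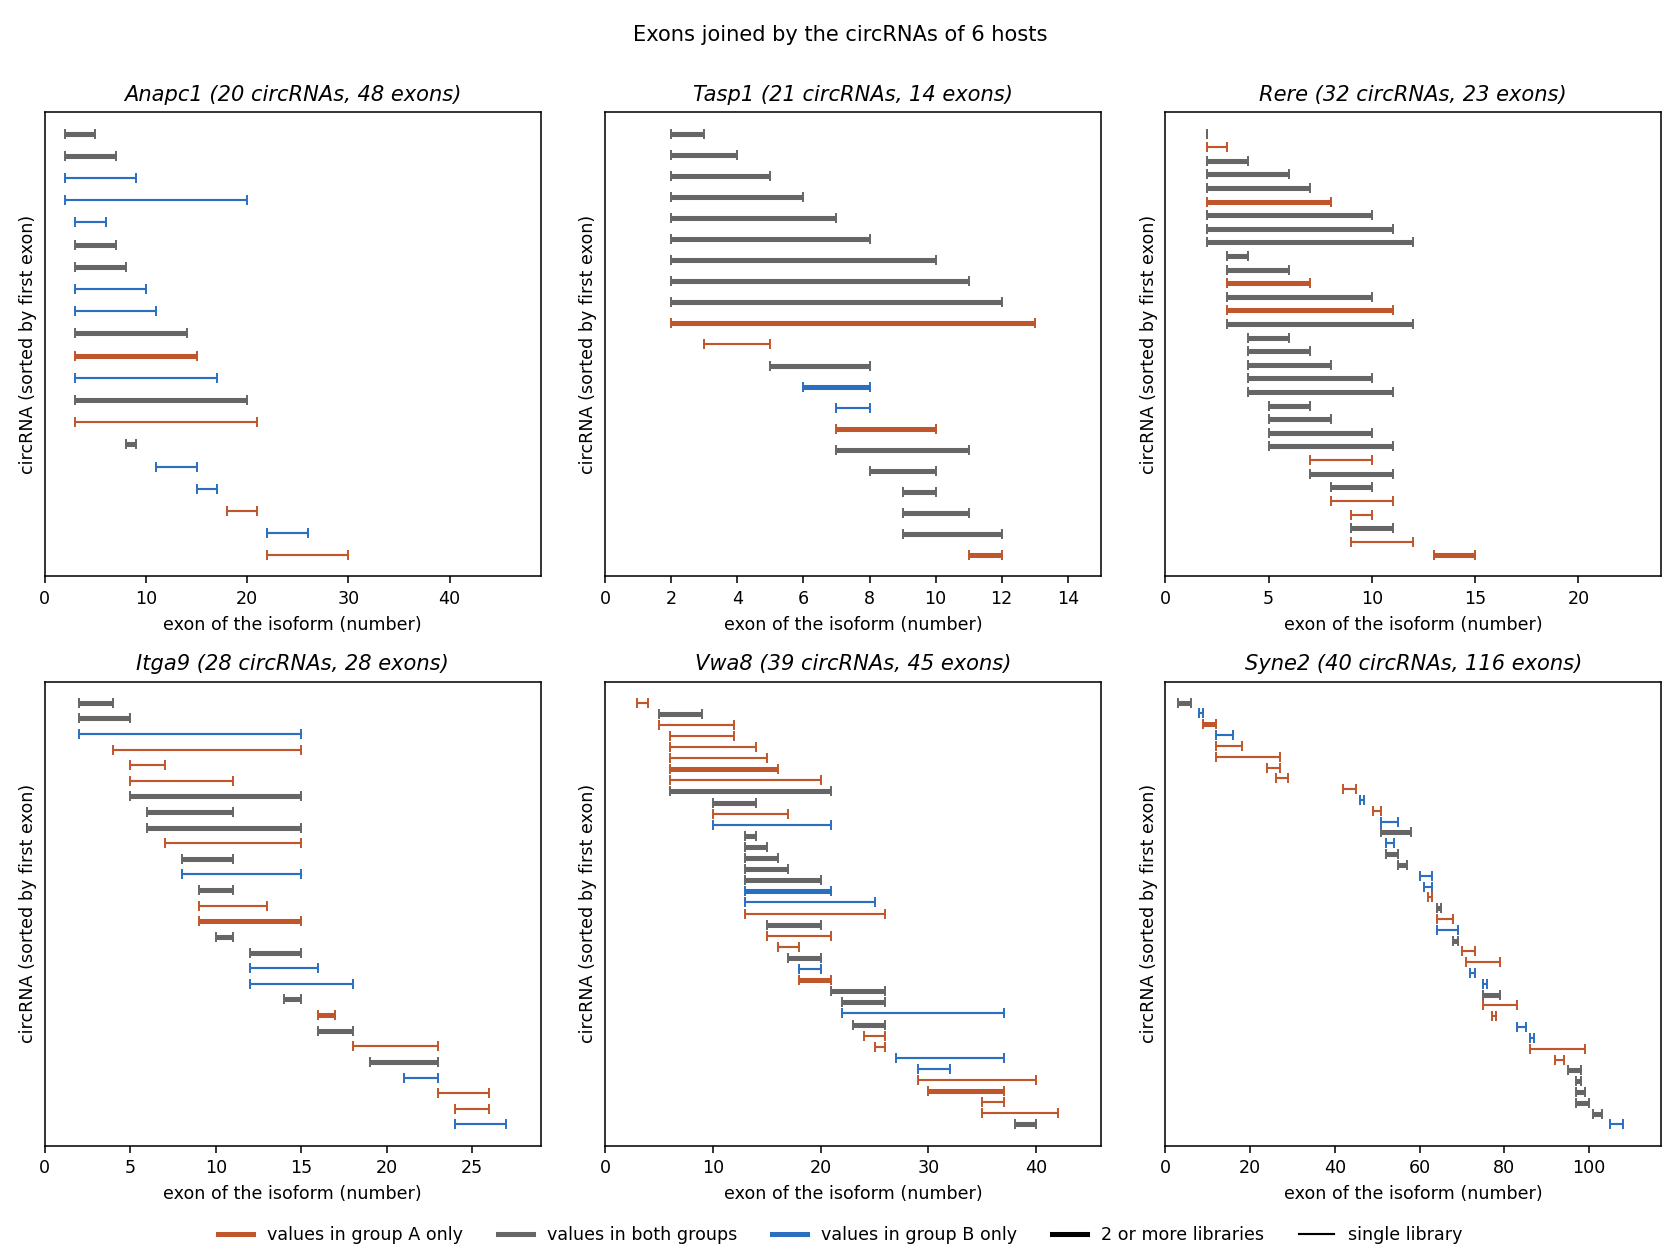
Circles of 6 hosts drawn from their first to their last exon (horizontal axis, exon number in the named isoform), a line per circRNA, coloured by the groups with a value and thick where values came from 2 or more libraries. Anapc1 and Tasp1 show a left edge shared by 10 circles, Itga9 a right edge shared by 9, and Syne2 short circles spread over 116 exons.

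The 5 hosts with the most circles used the following sites most. The first 20 bases of an acceptor exon or the last 20 bases of a donor exon are printed, and capitals mark the exon's first base at an acceptor and its last 2 bases at a donor. Where sites tied, the first along the transcript is shown.
Syne2 acceptor of exon 12 of 116 (3 circles, 4 tied sites): Gtcgctgcgtggagagccca
Syne2 donor of exon 63 of 116 (3 circles): aaagctccgtgaagagcgAA
Itpr1 acceptor of exon 14 of 62 (4 circles, 2 tied sites): Gaactcctatgtccgtctca
Itpr1 donor of exon 44 of 62 (8 circles): gaggcaacaccaccatccAG
Nbas acceptor of exon 36 of 52 (5 circles): Gatgctgctgctttgggcag
Nbas donor of exon 30 of 52 (4 circles): agctgcatggatttggccAG
Vwa8 acceptor of exon 13 of 45 (8 circles): Gatatgactgcgcgggacct
Vwa8 donor of exon 26 of 45 (6 circles): aacgtgcagctggcaaagGA
Tenm4 acceptor of exon 9 of 33 (6 circles): Aaacctaggcaagcagccat
Tenm4 donor of exon 16 of 33 (5 circles, 2 tied sites): tggacacgactgttccatTG
The letters at the exon edge stood at similar shares of used and unused sites. An AG at the last 2 bases of an internal exon, the common letters of a mammalian donor exon, stood at 60.2% of the 3249 internal exons of the 96 hosts. It stood at 60.9% of those used as back-splice donors and at 59.7% of those not used. A G at the first base stood at 47.7% of used and 48.3% of unused acceptors. Only the sense strand of the exon was read, and the intron side of the sites was not read.

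Introns next to the used sites were long. Internal exons of the 96 hosts were sorted by the number of circles that used each splice site, and the length of the adjoining intron was read. At acceptors, the upstream intron had a median of 1838 nt where no circle used the site (n = 1985), 3922 nt where 1 did (n = 672) and 15945 nt where 5 or more did (n = 67). At donors, the downstream intron had a median of 1764.5 nt at unused sites (n = 1950), 3839 nt at those used by 1 circle (n = 677) and 20563 nt at those used by 5 or more (n = 55). The medians rose through each class in between. Over all used sites they were 5931.5 nt at acceptors and 6037 nt at donors. Hosts with 10 to 19 circRNAs showed the same order. Their medians were 4633.5 nt at used and 1540 nt at unused acceptors, and 4158 nt at used and 1435 nt at unused donors.

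The same order held inside single genes. The median intron was longer at used than at unused acceptors in 89 of 96 hosts, and at used than at unused donors in 94 of 96. Exon 2 often follows a long first intron, and without it the acceptor medians were 1837 nt at unused sites and 11316.5 nt at the busiest, with 91 of 96 hosts in the same direction. The busiest acceptor bordered the longest intron of its host in 21 hosts, and the busiest donor did so in 10. There were exceptions among the sites with 5 or more circles. The acceptor of Anapc1 exon 3 followed an intron of 1160 nt, that of Gon4l exon 2 one of 1693 nt and that of Mib1 exon 5 one of 1862 nt. Unlike these exceptions, the donor of Itga9 exon 15 preceded a long intron, of 70617 nt. Sites within a gene share its size and the same transcripts, so no test was made.

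**Figure D3:**
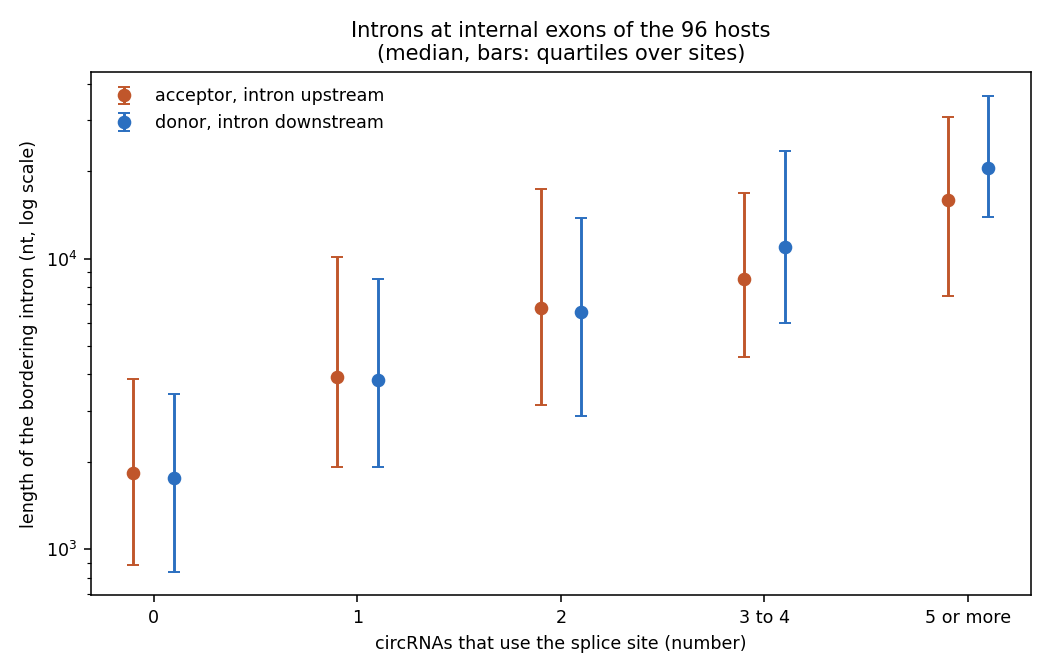
Median length of the intron beside internal splice sites of the 96 hosts (vertical axis, nt, log scale) by the number of circRNAs that use the site (horizontal axis), with bars for the quartiles over sites. The median rises from 1838 to 15945 nt at acceptors and from 1764.5 to 20563 nt at donors.

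Hosts with many circles were large genes. Their named isoforms had a median of 29.5 exons, against 22 in hosts with 10 to 19 circRNAs, 14 in hosts with 2 to 9 and 10 in hosts with a single circle. The genes spanned a median of 259 kb, against 122, 56.6 and 29.4 kb in those classes. More exons offer more junctions to count, so size is not independent of the rule that chose the hosts.

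The circles themselves were somewhat longer than those of other genes. They joined a median of 4 exons, against 3 in the 23661 circles of hosts with fewer than 20. Circles of a single exon made up 2.66% against 5.30%, and circles of 10 or more exons 8.10% against 3.27%. The longest, circRNA17006 of Itpr1, ran from exon 14 to exon 60 and joined 47 exons. The exonic length had a median of 574.5 nt against 460 nt, and 514 nt in hosts with 10 to 19. Exon 2 began 10.3% of the circles here and 24.8% of those in the other hosts, with 17.6% in hosts with 10 to 19. Coding exons alone made up 2221 circles (90%), against 82.9% in the other hosts and 85.8% in those with 10 to 19. Of the 2221, 921 (41.5%) had a length that is a multiple of 3, against 39.2%, and 39.7% in hosts with 10 to 19. Of the 2483 circles, 2468 lay on the named isoform, and the 15 others came from Ptk2 (6), Fer (5), Ehmt1 (3) and Dennd1b (1).

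Whether a single circle dominates the reads of its host is not analysed here, because the columns of read counts carry names that match no sample label. The deposited p-values give a coarser measure of breadth. An unequal-variance comparison gives 0.423 when a single library of the 6 has a value, and from this each circle was classed as present in a single library or in 2 or more. Values in 2 or more libraries were held by 1148 of the 2483 circles (46.2%), against 40.1% of all exonic circRNAs. A host had a median of 45.3% of its circles in that class.

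**Figure D4:**
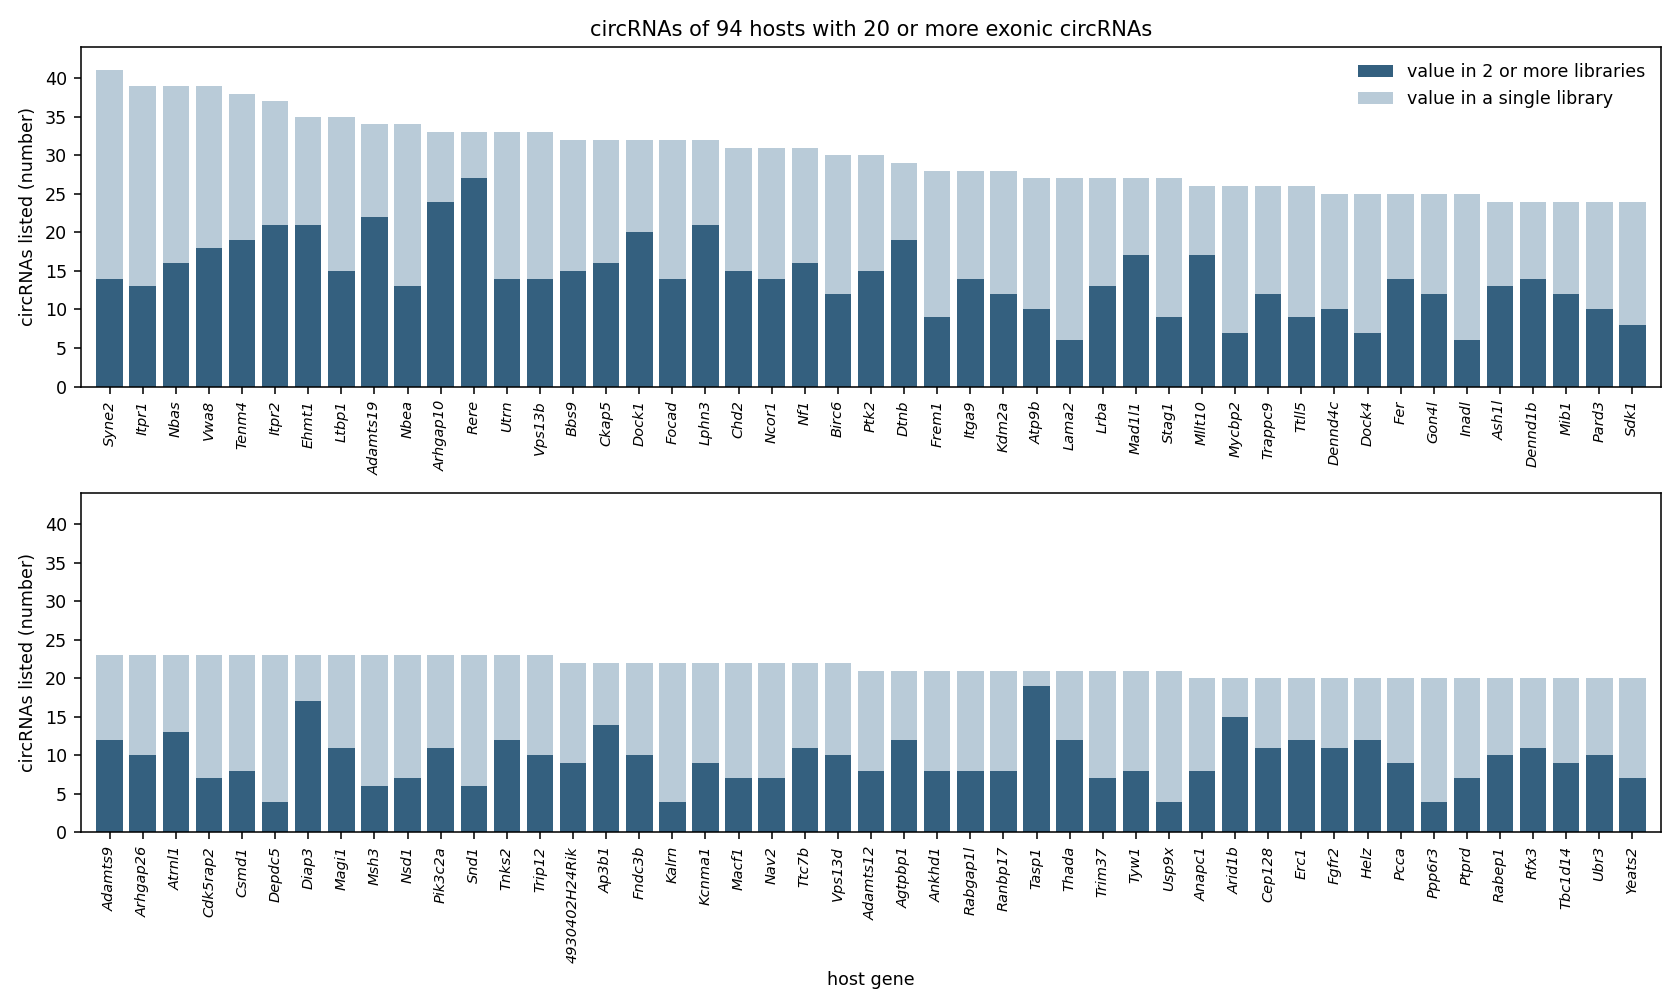
Number of exonic circRNAs (vertical axis) of 94 of the 96 hosts, with dark bars for circles with values in 2 or more libraries and pale bars for those in a single library. Syne2 has the tallest bar (41) and Rere the tallest dark bar (27).

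Breadth differed widely between hosts. Tasp1 had 19 of 21 circles in 2 or more libraries (90.5%), Rere 27 of 33 (81.8%) and the chromatin remodeller gene Arid1b 15 of 20 (75%). The formin gene Diap3 had 17 of 23 (73.9%) and the GTPase-activating protein gene Arhgap10 24 of 33 (72.7%). At the other end stood the mTORC1 regulator gene Depdc5 with 4 of 23 (17.4%), Kalrn with 4 of 22, Usp9x with 4 of 21, Ppp6r3 with 4 of 20 and the laminin gene Lama2 with 6 of 27. When circles of a single library were set aside, 7 hosts still had 20 or more circles: Rere, Arhgap10, Adamts19, Ehmt1, Itpr2, Lphn3 and Dock1.

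Circles on busy sites were found more broadly than circles on sites of their own. Values in 2 or more libraries were held by 23.2% of the 207 circles that shared no site. They were held by 186 of the 558 circles whose busier site served 2 circles. The share was 46.7% of the 1038 at sites with 3 or 4 and 63.1% of the 680 at sites with 5 or more. Circles of a host share its expression, so this is a description of the catalogue. The circles of a gene are not replicates of each other.

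Most of these circles had the higher mean in group A, by the authors' deposited table. Values in group A alone were listed for 1174 (47.3%), in group B alone for 448 (18%) and in both groups for 861 (34.7%). The same shares over all exonic circRNAs were 47.5%, 21.8% and 30.6%. With single-group circles included, the authors' deposited table had 1845 circles (74.3%) higher in A, against 68.3% of all exonic circRNAs. Among circles in 2 or more libraries it was 911 of 1148 (79.4%), against 70.8%. For circles with values in both groups, the median log2 fold change of A over B was 0.68 in the authors' deposited table, against 0.43 over all exonic circRNAs. The rule counted circles from both groups together, so a gene with more circles found in A had more chance to be chosen, and this direction is not independent of the choice.

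The authors' deposited table marked 69 of the 2483 circles as different (2.78%), where 1.82% of all exonic circRNAs were marked. A mark needed a p below 0.05 together with a change of 1 or more in either direction on the log2 scale. Of the 69, 60 were higher in A (background 1.31%) and 9 were higher in B (background 0.509%). They came from 39 hosts, and no host had marks in both directions. Of these hosts, 18 had a single mark, which can have only 1 direction. In the 21 hosts with 2 or more marks, a shared direction has little weight, since most marks were higher in A. None passed adjustment, nor did any other circRNA of the catalogue (0%): the smallest adjusted p that the authors' deposited table gave these circles was 0.522. An unadjusted p under 0.05 was listed for 80 of the 2483, against 2.03% of all exonic circRNAs. The marks are therefore read as the authors' ranking and not as established differences. The labels do not say that the libraries came from separate animals, so the p-values measure the spread between libraries, which may be technical.

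The junctions of the circles with the smallest p in the 8 highest-ranked hosts are printed in the same way as before, since these circles head the authors' comparison.
Pard3 circRNA3664, exon 22 back to 19, chr8:127415570-127474615, plus strand: caaacctggagacagGCTCTCCCAGTAGAG
Ehmt1 circRNA2727, exon 9 back to 4, chr2:24852665-24877626, minus strand: agacagaaaatgaagCATGCAGCCAGCAAA
Magi1 circRNA1955, exon 18 back to 14, chr6:93697194-93708220, minus strand: cgggcacaaccttcgCAGCCACTGGAGAGG
Ranbp17 circRNA455, exon 22 back to 18, chr11:33283908-33318347, minus strand: tgatttgcacctacgAGTGAACACTTCCCG
Dennd1b circRNA3155, exon 19 back to 10, chr1:139081173-139144000, plus strand: cacaagctttcccagTTAACTGCCTGTCTC
Diap3 circRNA1346, exon 27 back to 23, chr14:86772086-86835101, minus strand: aagtttgtaaccatgTCTCTGTAGAAATGC
Gon4l circRNA21623, exon 7 back to 2, chr3:88836990-88857226, plus strand: gagacagctgaagagGATGGAACAGACGTG
Agtpbp1 circRNA145, exon 25 back to 19, chr13:59460469-59477138, minus strand: ctgtaaagtgactagAAATCACTTCTCACG
All lie within coding exons except the circle of Gon4l, whose first exon also holds untranslated sequence.

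Cell polarity and junction genes had the highest share of circles higher in group A among 10 groups of hosts by role. This group, like those that follow, was drawn up from the known roles of the hosts after the counts had been seen. Inadl had 25 circles, Pard3 had 24 and Magi1 had 23, all genes for scaffold proteins of tight junctions and cell polarity. The authors' deposited table had 66 of these 72 circles (91.7%) higher in A and 7 marked. Values in 2 or more libraries were held by 27 of the 72 (37.5%), the lowest share of the 10 groups. All 27 were higher in A, and the other directions rest on a single library each. Over all exonic circRNAs 68.3% were higher in A and 1.82% were marked, and the shares of this and of each later group are to be read against these. Pard3 circRNA3664, the first of the printed junctions, had a log2 fold change of 1.38 (p = 0.000272, from the authors' deposited table). Its donor, the end of exon 22 of 25, was shared by 6 circles of Pard3. The marked circles circRNA3668 and circRNA3669 used that donor too, with p = 0.0307 and p = 0.00281 in the authors' deposited table. The intron after this donor is 118445 nt long. In Magi1, the authors' deposited table listed circRNA1955 in A alone (p = 0.00178) and gave circRNA1960 as 6.68-fold higher in A (p = 0.0125).

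Genes of the extracellular matrix, adhesion and the cell surface were the most divided. The 14 hosts were Tenm4 with 38 circles, Ltbp1 with 35, Adamts19 with 34, Lphn3 with 32, Frem1 and Itga9 with 28 each, and Lama2 with 27. Sdk1 had 24, Adamts9, Atrnl1 and Csmd1 had 23 each, Fndc3b had 22, Adamts12 had 21 and Ptprd had 20. The authors' deposited table had 247 of the 378 circles (65.3%) higher in A, with a lowest share per host of 4.35%. Frem1, a gene for a basement membrane protein, had all 28 circles higher in A, 26 of them listed in A alone. Only 9 of the 28 had values in 2 or more libraries, so most of these directions rest on a single library each. The adhesion receptor gene Lphn3 had 5 marked circles and the metalloprotease gene Adamts19 had 4, with each of them higher in A. For circRNA2148, circRNA2150 and circRNA2152 of Lphn3 the authors' deposited table gave 8.80-fold, 8.50-fold and 5.19-fold (p = 0.00672, 0.00857 and 0.0124). For circRNA1559 of Adamts19 it gave 8.79-fold (p = 0.00500, from the authors' deposited table). Sdk1, an adhesion gene of the immunoglobulin superfamily, had circRNA2266 and circRNA2269, with 5.43-fold and 6.89-fold in the authors' deposited table. Atrnl1 circRNA1469 was 6.63-fold higher by the authors' deposited table (p = 0.0133).

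Csmd1, which encodes a large complement-regulatory membrane protein, went the other way. The authors' deposited table gave 21 of its 23 circles values in group B alone, 1 in A alone and 1 in both. Only 8 of the 23 had values in 2 or more libraries, and 1 of these 8 was higher in A. A circle with a value in a single library is necessarily listed in a single group. Its circles did not rest on a single site, as no acceptor or donor served more than 3 of them. The marked circles were circRNA21986, exons 44 to 49 of 70, and circRNA21992, exons 4 to 5, with p = 0.00489 and p = 0.00867 in the authors' deposited table. The introns on the flanks of circRNA21992 are 316522 and 196523 nt long. The receptor phosphatase gene Ptprd had 16 of 20 circles higher in B, and Ltbp1, which encodes a protein that stores latent TGF-beta in the matrix, had 23 of 35. Values in 2 or more libraries were held by 7 circles of Ptprd, 1 of them higher in A. They were held by 15 circles of Ltbp1, 2 of them higher in A. In Tenm4, a teneurin gene, 24 of 38 were higher in B, and circRNA21243 was marked with values in B alone (p = 0.0130) in the authors' deposited table.

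Genes of the nuclear envelope, microtubules, centrosome and cytoskeleton gave 351 circles from 13 hosts. They were Syne2 with 41, Utrn with 33, Bbs9 and Ckap5 with 32 each, Dtnb with 29, Mad1l1 with 27 and Ttll5 with 26. Cdk5rap2 and Diap3 had 23 each, Macf1 and Nav2 had 22 each, Agtpbp1 had 21 and Cep128 had 20. By the authors' deposited table, 259 of these circles (73.8%) were higher in A and 9 were marked. Syne2 was among the 8 hosts with fewer than 50% of circles in A, at 18 of 41. Its circRNA321, exons 97 to 98, was 9.34-fold higher in B (p = 0.0114) and its circRNA4466, exons 64 to 65, was 5.14-fold higher in B (p = 0.0334) in the authors' deposited table. Diap3 had all 23 circles higher in A, and the authors' deposited table gave circRNA1346 as 5.70-fold (p = 0.00347) and circRNA1352 as 5.53-fold (p = 0.00996). Agtpbp1 circRNA145 (p = 0.00483) and Cdk5rap2 circRNA2356 (p = 0.0130) were listed in A alone by the authors' deposited table.

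Chromatin, transcription and DNA repair genes formed the largest group by circles, with 389 from 15 hosts. Among them, Ehmt1 had 35 circles, Rere 33, Chd2 and Ncor1 31 each, Kdm2a 28, Stag1 27, Mllt10 26 and Gon4l 25. Ash1l had 24, Msh3 and Nsd1 had 23 each, and Arid1b, Rfx3 and Yeats2 had 20 each. The authors' deposited table had 308 of the 389 (79.2%) higher in A and 11 marked, 10 of them in that direction. All 33 circles of Rere were higher in A. For its 23 circles with values in both groups the authors' deposited table gave log2 fold changes between 0.48 and 2.56, with a median of 1.13. The 2 marked circles of Rere, circRNA2531 (p = 0.0219) and circRNA2528 (p = 0.0235) in the authors' deposited table, started at the same acceptor of exon 4. Ehmt1 encodes a histone methyltransferase. Its circRNA2727 was listed in A alone by the authors' deposited table (p = 0.00114). The exception was Gon4l, whose circRNA21623 was listed in B alone (p = 0.00415) in the authors' deposited table.

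Membrane traffic and scaffold genes had 378 circles from 15 hosts. Nbas had 39, Nbea 34, Vps13b 33, Lrba 27, Trappc9 26 and Dennd4c 25. Dennd1b had 24, Pik3c2a had 23, Ap3b1, Ttc7b and Vps13d had 22 each, Rabgap1l had 21, and Erc1, Rabep1 and Tbc1d14 had 20 each. Of these, 297 (78.6%) were higher in A by the authors' deposited table and 7 were marked, all in that direction. Lrba and Nbea, related genes with a BEACH domain, had 25 of 27 and 30 of 34 circles higher in A. Only 13 circles of each had values in 2 or more libraries. All of these were higher in A, and the other directions rest on a single library each. Dennd1b circRNA3155, which joins exon 19 back to exon 10 of a Rab exchange factor gene, was listed in A alone (p = 0.00208) in the authors' deposited table. By the authors' deposited table, circRNA2597 (p = 0.00707) and circRNA2600 (p = 0.00824) of Lrba and circRNA1136 of Vps13b (p = 0.00779) were also listed in A alone. Nbea circRNA2575 was 6.71-fold higher by the authors' deposited table (p = 0.0128). Rabep1, a Rab5 effector gene, had 9 of 20 circles higher in A.

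Kinase, growth factor and small GTPase signalling genes had 284 circles from 11 hosts. Arhgap10 had 33, Dock1 32, Nf1 31, Ptk2 30, Dock4 and Fer 25 each, Arhgap26 and Depdc5 23 each, Kalrn 22, and Fgfr2 and Ppp6r3 20 each. The authors' deposited table had 205 (72.2%) higher in A, and 8 of its 10 marks were in that direction. Arhgap26 circRNA1538 was 2.10-fold higher (p = 0.00771) and Arhgap10 circRNA3561 was listed in A alone (p = 0.0118) by the authors' deposited table. Fer, a non-receptor tyrosine kinase gene, had 4 marked circles, and the authors' deposited table gave circRNA905 among them as 5.49-fold higher in A (p = 0.0462). Depdc5 held both marks for B: circRNA9087 was 3.97-fold higher in B (p = 0.0227) and circRNA9088 3.83-fold (p = 0.0342) in the authors' deposited table. Both of these circles ended at exon 37 of 43. Dock1 circRNA1820 and circRNA1821 shared the acceptor of exon 17 and were 6.45-fold and 2.32-fold higher in A by the authors' deposited table.

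The 9 genes of ubiquitin pathways or of ADP-ribose transfer had 208 circles and a single mark. Birc6 had 30 circles, Mycbp2 26, Mib1 24, Tnks2 and Trip12 23 each, Trim37 and Usp9x 21 each, and Anapc1 and Ubr3 20 each. The authors' deposited table had 150 (72.1%) higher in A, and its mark was circRNA21147 of the Notch ligand ubiquitin ligase gene Mib1, listed in B alone (p = 0.0207). The shared acceptor of Anapc1 held circles of both directions. Of its 10 circles, 4 were listed in both groups, 4 in B alone and 2 in A alone in the authors' deposited table. Each of the 4 in B alone had a value in a single library. The 5 circles with values in 2 or more libraries, among them the 4 listed in both groups, were all higher in A by the same table. For these 4 the differences were small, between 1.05-fold and 1.85-fold, and none was marked.

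Ion channel and pump genes had 125 circles from 4 hosts, 93 (74.4%) of them higher in A by the authors' deposited table. Itpr1 had 39 and Itpr2 37, both genes for inositol trisphosphate receptors that release calcium from the endoplasmic reticulum. Atp9b, a phospholipid flippase gene, had 27, and Kcnma1, a calcium-activated potassium channel gene, had 22. The marks were circRNA2032 and circRNA2029 of Itpr2, listed in A alone with p = 0.0209 and p = 0.0254 in the authors' deposited table.

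Genes of RNA binding, RNA modification and nuclear transport had 143 circles from 6 hosts, 100 (69.9%) of them higher in A by the authors' deposited table, close to the 68.3% of all exonic circRNAs. Among them, Snd1 had 23 circles, Ankhd1, Ranbp17 and Tyw1 had 21 each and Helz had 20. The authors' deposited table gave Ranbp17 circRNA455 as 6.92-fold higher in A (p = 0.00202) and Tyw1 circRNA2239 as 7.36-fold higher (p = 0.0222). The remaining 6 hosts were mitochondrial or of other or unassigned roles, with 155 circles, of which 120 (77.4%) were higher in A by the authors' deposited table. Vwa8 had 39, Focad 32, 4930402H24Rik 22, Tasp1 and Thada 21 each and Pcca 20. Focad and Tasp1 had 30 of 32 and 19 of 21 circles higher in A, and Thada circRNA958 was listed in A alone (p = 0.00538) by the authors' deposited table. Only 14 of the 32 circles of Focad had values in 2 or more libraries, and these 14 were higher in A.

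**Figure D5:**
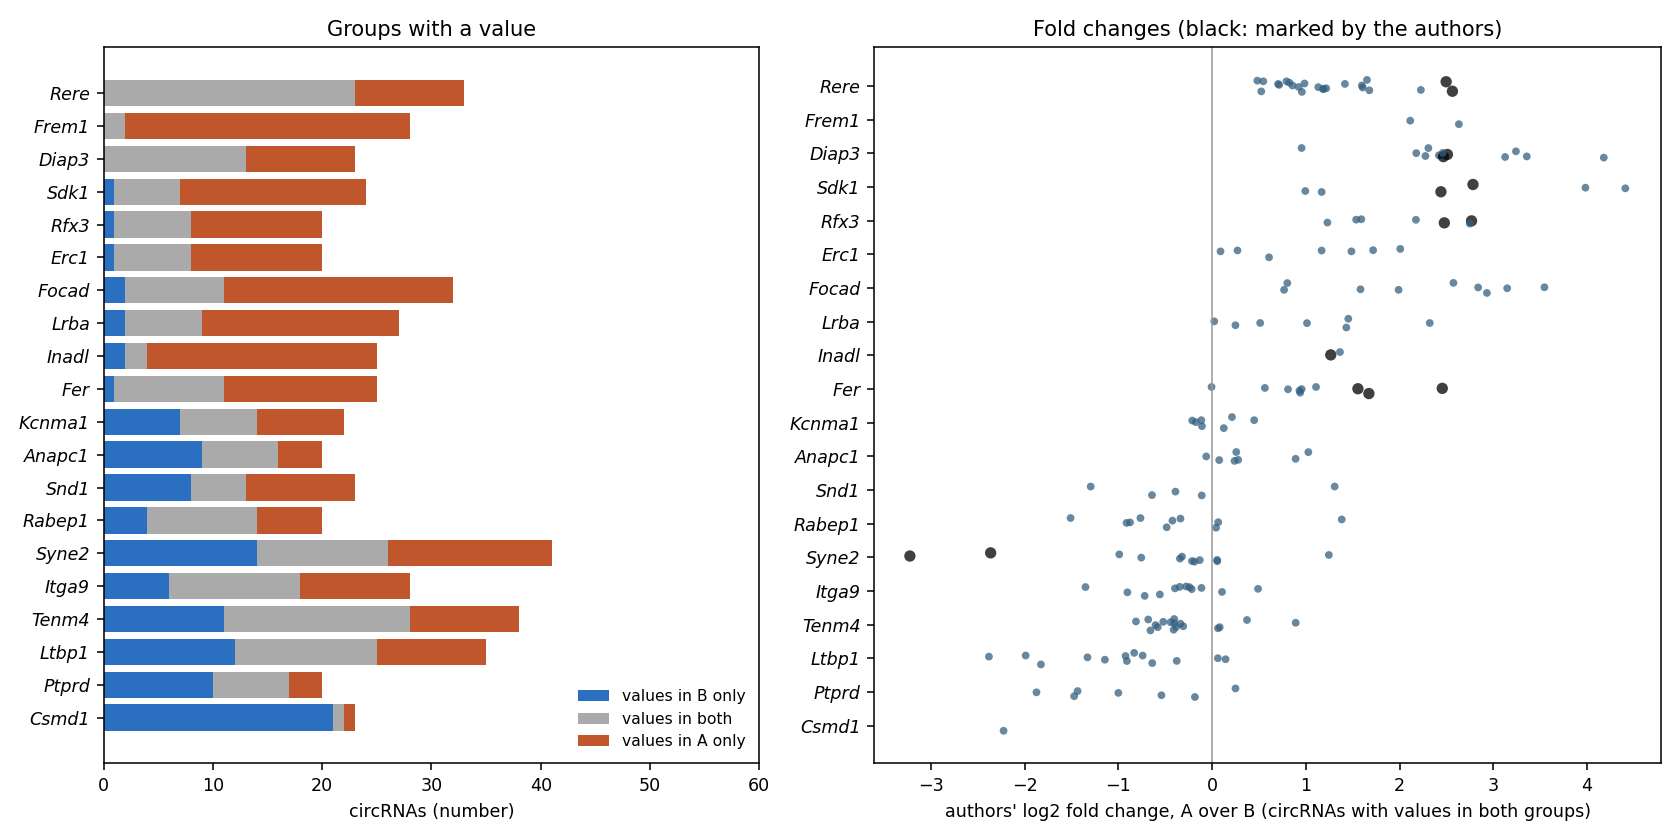
The 10 hosts with the lowest and the 10 with the highest share of circles higher in group A: numbers of circles with values in B alone, both groups or A alone (left), and the authors' log2 fold change of A over B for circles with values in both groups (right, black where marked). Rere, Frem1 and Diap3 have no circle higher in B, and 21 of the 23 circles of Csmd1 have values in B alone. Circles with a value in a single library are included, and these are necessarily listed in a single group.

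Circles on a shared site tended to lie on the same side of the authors' comparison. Among circles in 2 or more libraries, 1404 pairs within a host shared a site, and 1161 of these pairs (82.7%) had the same direction in the authors' deposited table. For the 5925 pairs that shared no site it was 4480 (75.6%). Where both circles of a pair had values in both groups, their log2 fold changes in the authors' deposited table lay a median of 0.55 apart with a shared site (848 pairs) and 0.75 apart without (3368 pairs). A circle enters many pairs and large hosts give most of them, so no test was made.

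Single sites held circles of 1 direction or of both. The acceptor of exon 2 of Tasp1 had all 10 circles higher in A by the authors' deposited table. For the 9 with values in both groups the differences lay between 1.15-fold and 3.65-fold, and none was marked. The acceptor of exon 11 of Ltbp1 and the donor of exon 16 of Tenm4 were the only sites with 5 or more circles where all were higher in B. Among the other sites of that size, all circles were higher in A at 33 acceptors and 17 donors, and both directions occurred at 36 acceptors and 38 donors in the authors' deposited table. Circles with a value in a single library are counted here. At the acceptor of exon 17 of Frem1, for example, only 2 of 8 circles had values in 2 or more libraries. Of all circles of the 96 hosts 74.3% were higher in A, against 68.3% of all exonic circRNAs.

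Several relatives of the hosts had few circles. Among 65 genes of 26 families chosen by hand for this comparison, 21 had 20 or more exonic circRNAs, 18 had 10 to 19, 23 had 1 to 9 and 3 had none listed. The 21 are hosts described here, so these are not counts of relatives alone. Of the 26 families, 15 held 2 or more genes, and 11 of these 15 held a host with 20 or more. Each remaining family was entered as a single gene with no relative beside it. The choice left out other related hosts, such as Lrba with Nbea, Arhgap10 with Arhgap26, and Adamts9 with Adamts12 and Adamts19, so these counts do not describe relatives in general. Related hosts within the list were Itpr1 with Itpr2, Dock1 with Dock4 and Vps13b with Vps13d. Itpr3 had a single circle on 58 exons, where Itpr1 had 39 on 62. The Itpr3 gene spans 64.9 kb and the Itpr1 gene 338 kb. Atn1, the relative of Rere, had 2 circles on 13 exons and spans 16.8 kb, against 340 kb for Rere. Span did not always go with circles: Dock2 spans 557 kb and had 2 circles, and Dock1 spans 503 kb and had 32. Expression of these genes in the ovary was not analysed here.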

How the data were processed

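Per the labels' protocols, RNase R-treated RNA from 6 ovary libraries was read as 150 nt paired ends. Per the submitters' processing notes, Bowtie 0.12.2 and the GRCm38 build were used. No source used here gives the circRNA caller or its filters. Per the file headers, the authors deposited for each of 27999 circRNAs a log2 fold change of group A over B (infinite where a group's mean is 0), a p-value and an adjusted p-value from a test that is not named. The letters match no sample label, so 24 columns per library and 2 columns of means were not used, no depth is given, and the planned count tests were not run. A line is missing from each of the 2 tables used.

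Circles were grouped by host name, and their ends were read as splice sites equal to the base. A p of 0.423 (tolerance 1e-09) was read as a value in a single library, since an unequal-variance comparison gives it when all other values are 0. Circles were placed on the isoform named in the table, in GENCODE M21. The counting of sites was tested on simulated circles. Python 3.11.15, pandas 2.3.3, numpy 2.4.6 and scipy 1.17.1 were used.

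The members and lists were chosen with earlier results of these data known. Hosts were named by number of circles and by the 5 largest and 5 smallest shares, and the 30 marked circles of smallest p were taken. Other marked circles named, the role groups and the 2 display sets of junctions were chosen after values were seen. Some hosts counted in the totals are not reported by name here, and 2 are not drawn in the plots of single hosts.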

Additional observations from a re-analysis of the deposited data

How the results depend on the processing

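The number of hosts and circles followed the threshold: 210 hosts with 4396 circles at 15 or more circles per host, 43 with 1330 at 25, and 25 with 853 at 30. With only circles in 2 or more libraries, 7 hosts with 156 circles met the threshold, 83.7% of the circles in 2 or more libraries of all 96 hosts shared a site, and the median share at the most used site was 30%. That median was 22.2% at a threshold of 15 and 17.6% at 30. The 69 marks became 21 at p under 0.01 and 0 at an adjusted p under 0.05, in the authors' deposited values. The share higher in A was 79.4% among circles in 2 or more libraries and 74.3% among all. The marks were 80 at p under 0.05 alone and 53 at an absolute change of at least 2 on the log2 scale. These counts lay within 1.5 times the main count, and 10 further alternatives of the 27 moved no result beyond the limits set for it, among them sites within 5 nt taken as equal, the longest isoform in place of the named isoform (9809 nt for the median flanking intron, against 10149.5 nt) and, chosen after seeing the data, intronic circles counted as well (101 hosts). No paired analysis was possible because the columns carry no name that matches a sample label. For the same reason the planned tests on counts, other normalizations, the share of a host's counts in its top circle and leaving out each replicate were not run. Depth per library is unknown, so a circle listed in a single library cannot be told apart from one missed elsewhere.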

Other observations

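The 96 hosts also gave 20 intronic circRNAs (ciRNAs), which form from intron lariats and lie within an intron, of the 1855 in the catalogue. They came from 9 hosts, with 7 in Rere, 5 in Macf1, 2 in Fgfr2 and 1 each in Anapc1, Birc6, Ehmt1, Nav2, Snd1 and Syne2. Several had the same start and ends a few bases apart: 3 of Rere began at position 150617480 of chromosome 4 (GRCm38) and were 897, 902 and 903 nt long. The authors' deposited table had 11 of the 20 higher in A and none marked, and 1 had values in 2 or more libraries. Each of the others had a value in a single library, so it could not be marked. Its direction is only the group of that library. The same shares over all 1855 ciRNAs are not given here. The ciRNA in 2 or more libraries was ciRNA226 of Rere, 223 nt long. Its log2 fold change of A over B was -1.34 (p = 0.0860) in the authors' deposited table. All 33 exonic circles of Rere were higher in A.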
